A study of Homo sapiens with 8 samples.

Results

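The 9 genes described here are associated with YAP, TAZ and the TEAD transcription factors: CTGF, CYR61, ANKRD1, NPPB, PTPN14, AMOTL2, LATS2, CRIM1 and AXL. They were picked by gene symbol, in the older forms CTGF (now CCN2) and CYR61 (now CCN1), and all 9 were found among 11644 genes in the day 2 table and among 14070 genes in the day 0 table. The symbols were chosen with the differences between genotypes already known, so every value that sets SETD7 knockout against wild-type cells for these 9 genes is given as a description, without a test. Tests are given for other genes of the pathway, listed by function, but those lists too were drawn up with earlier results of these data known.

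RNA-seq was available from 8 libraries of H1, a widely used line of human embryonic stem cells kept in mTESR medium. SETD7 KO cells are labelled as a knockout of SETD7, a lysine methyltransferase, and were set against WT cells on day 2 of a differentiation towards blood, with 3 libraries each, and on day 0, with 1 library each. The labels give the same treatment for all 8 libraries, and neither the editing method nor the number of knockout clones is given in the sources used here. Day 2 values are counts, shown as CPM (counts scaled to library size) after TMM scaling, and day 0 values are FPKM, so levels on the 2 days are never subtracted. Replicates are numbered in the labels without a statement that they were separate cultures, so any p given for day 2 reflects the spread of these libraries, part of which may be technical. Day 2 totals lay between 29647943 and 39553614 counts in KO libraries and between 27880068 and 32230627 counts in WT libraries. SETD7 itself was 32.9, 28.9 and 33.7 CPM in the KO libraries, against 54.8, 56.2 and 55.6 CPM in the WT libraries. Its RNA was thus still counted in the libraries labelled KO, at 57.3% of WT, and gene-level counts do not show whether it encodes protein.

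YAP and its relative TAZ, encoded by WWTR1, are coactivators that carry mechanical and cell-contact signals into the nucleus. The Hippo kinases, among them LATS1 and LATS2, phosphorylate them and keep them in the cytoplasm, and without that phosphorylation they bind TEAD factors on DNA and switch on target genes. Several targets feed back on the pathway: LATS2 is one of its kinases, AMOTL2 holds YAP at cell junctions and PTPN14 binds YAP and restrains it. CTGF and CYR61 are secreted matricellular proteins and the classic readouts of YAP activity in many cell types.

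The proximal promoters are shown first. TEAD motifs near the start were not used directly to pick the symbols. The genes are listed as TEAD-associated, however, and that status may rest in part on such motifs. The shares below are thus a description only. RefSeq promoter windows (GRCh38.p14, 250 bases before to 50 bases after the annotated start) were matched for 6 of the 9 genes, CTGF, ANKRD1, PTPN14, AMOTL2, LATS2 and AXL, with 8 windows in all. CTGF, ANKRD1 and AMOTL2 are printed below, 5′ to 3′ along the gene and up to the start, as the genes with more than 1 match or with the longest one. Capitals mark the TEAD core GGAATG, or its reverse complement CATTCC. The stretches are chr6:131951373-131951622 (minus strand) for CTGF, chr10:90921088-90921337 (minus strand) for ANKRD1 and chr3:134374448-134374697 (minus strand) for the downstream start of AMOTL2.
CTGF: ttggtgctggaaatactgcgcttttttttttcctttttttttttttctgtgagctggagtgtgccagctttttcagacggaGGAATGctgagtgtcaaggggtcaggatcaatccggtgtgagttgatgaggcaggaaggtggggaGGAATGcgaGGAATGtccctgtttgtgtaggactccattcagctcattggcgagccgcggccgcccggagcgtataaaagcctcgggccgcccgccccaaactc
ANKRD1: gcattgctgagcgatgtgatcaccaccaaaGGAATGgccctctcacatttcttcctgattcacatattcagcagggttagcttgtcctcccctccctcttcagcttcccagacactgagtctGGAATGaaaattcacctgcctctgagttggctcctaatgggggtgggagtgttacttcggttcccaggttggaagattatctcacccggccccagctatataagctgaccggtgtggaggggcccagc
AMOTL2: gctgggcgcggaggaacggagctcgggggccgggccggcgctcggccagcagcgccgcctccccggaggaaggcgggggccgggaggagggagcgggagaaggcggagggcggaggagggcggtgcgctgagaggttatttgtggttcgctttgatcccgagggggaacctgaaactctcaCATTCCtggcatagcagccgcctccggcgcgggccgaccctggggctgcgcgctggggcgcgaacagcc

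The CTGF window held 3 TEAD cores, whose first bases lay at −169, −104 and −95 from the start, all on the strand of the gene. ANKRD1 held 2 cores at −220 and −128. AMOTL2 held 1 core at −69 on the opposite strand, which was also the longer form GGAATGT, read as ACATTCC. PTPN14 had 1 core at −200 and AXL 1 at −212, both on the opposite strand, and LATS2 had 1 at 9 bases after the start. A core was thus found in 6 of the 8 windows, at least 1 for each of the 6 genes, and in 14.0% of 35116 RefSeq windows of the same length. The longer form GGAATGT was found in CTGF and AMOTL2, and in 3.46% of all windows. The AP-1 motif TGANTCA was found once, in ANKRD1 at −195 (7.71% of all windows), and the CArG box, the SRF motif, in none of the 8 windows (1.29% of all windows). Both strands were searched for each motif. A match is a run of letters, not evidence of binding, and distal enhancers, where TEAD factors often bind, were not searched.

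**Figure D1:**
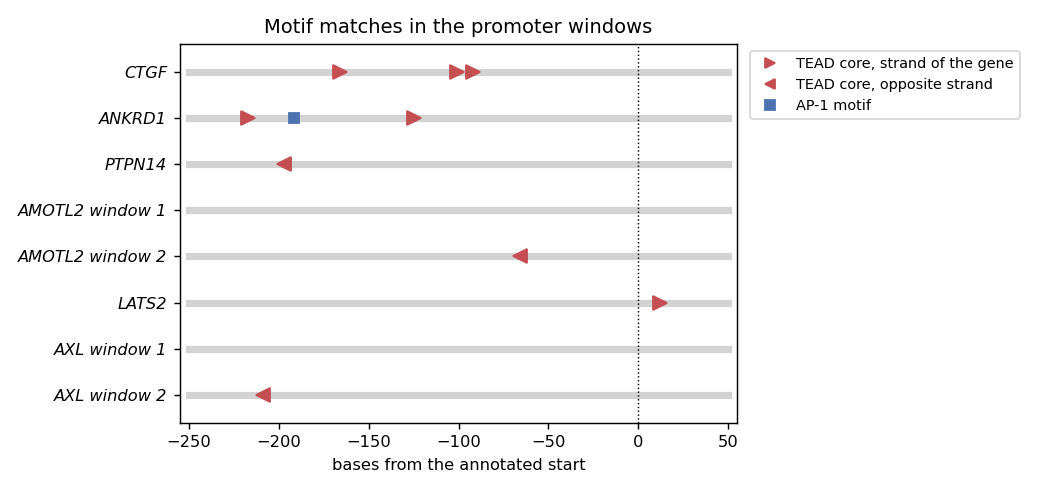
Motif matches in the 8 promoter windows of 6 members. The horizontal axis is the distance in bases from the annotated start, grey bars are the windows, arrowheads are TEAD cores pointing along their strand and the square is the AP-1 motif. CTGF carries 3 cores and ANKRD1 carries 2, and AMOTL2 and AXL each have 1 window without a match.

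At day 2 the 9 genes fell into a group that was higher in SETD7 KO cells and a group with small differences. NPPB, ANKRD1, CTGF and CYR61 were between 1.42-fold and 3.18-fold higher in KO, PTPN14 was 1.17-fold higher, and AXL, LATS2, CRIM1 and AMOTL2 had log2 fold changes between −0.07 and 0.20. All 9 passed the low-count filter. Of the 9, 5 passed edgeR's threshold (adjusted p under 0.05) as higher and none as lower, where 12.3% of the 11475 genes tested were called higher, 11.0% lower and 23.3% in either direction. The same 5 had KO libraries that all lay above all WT libraries, as did 18.9% of all genes tested, and AMOTL2 made 6 members that did not overlap in either direction, beside 37.7% of all genes. Because the members were chosen with this contrast known, nothing is read from these counts. The median log2 fold change of the 9 was 0.23, beside −0.0026 for all genes tested. Summed over the 9 genes, the level was 1000.5, 936 and 948 CPM in KO libraries, against 826, 809 and 804 CPM in WT libraries. The coefficient of variation between libraries of 1 genotype ran from 1.24% for CYR61 to 7.25% for PTPN14 in KO, and was highest for AXL in WT, at 13.1%. In bulk RNA, a change in the share of cells that express a gene cannot be told apart from a change in RNA per cell.

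**Figure D2:**
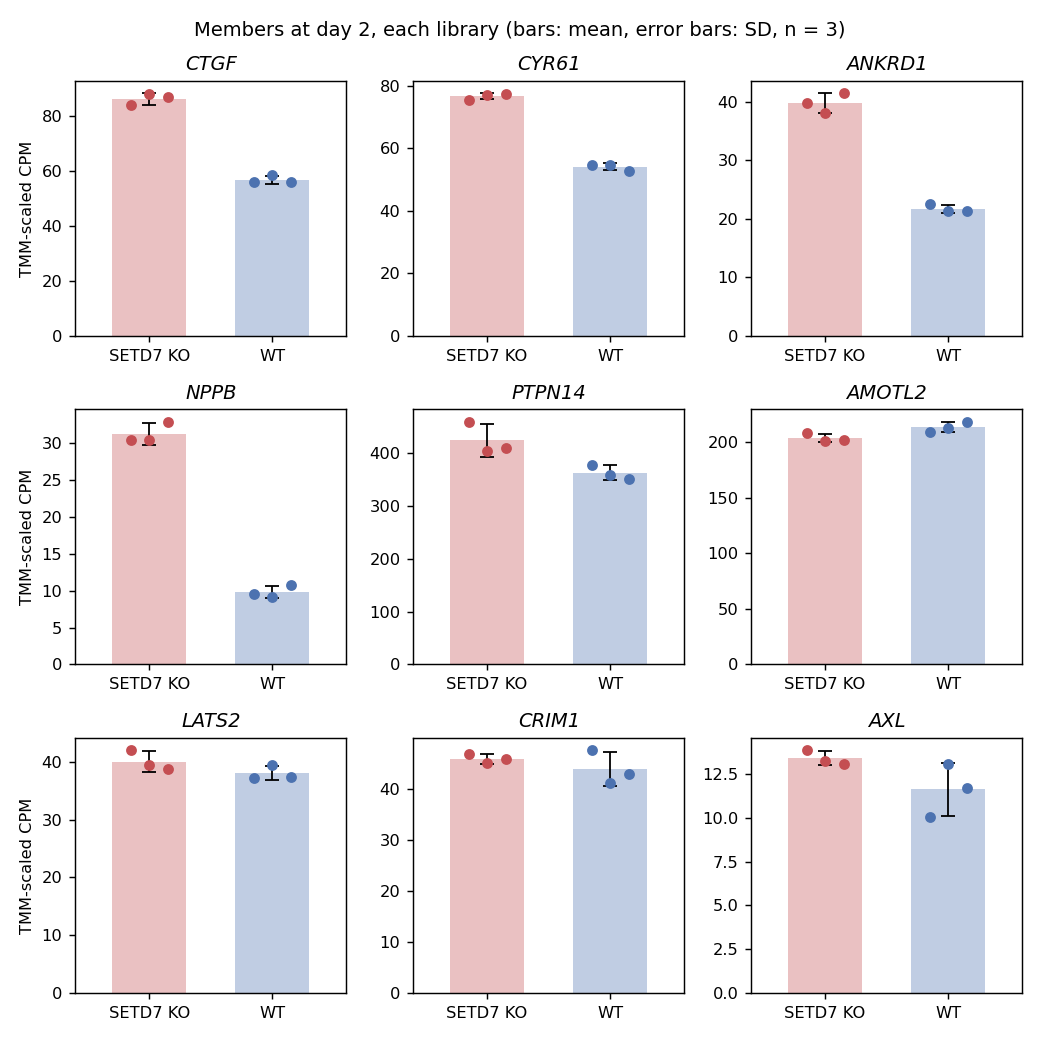
TMM-scaled CPM of the 9 members at day 2, with 1 point per library, bars for the mean and error bars for the SD (n = 3). The KO points of NPPB, ANKRD1, CTGF and CYR61 stand well above the WT points, and those of LATS2, CRIM1 and AXL overlap them.

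The secreted factors CTGF and CYR61 had differences of similar size. CTGF (chr6:131948176-131951373, minus strand, GRCh38), a matricellular protein that binds integrins and growth factors, was 83.8, 87.8 and 86.6 CPM in KO libraries, against 55.8, 58.5 and 55.8 CPM in WT libraries. The lowest KO library was 1.43 times the highest WT library. Its log2 fold change was 0.60 (SE 0.045), which placed it at 167 from the top of the 11475 genes. CYR61 (chr1:85580761-85583962, plus strand), its close relative in the CCN family, was 75.6, 77.0 and 77.3 CPM in KO libraries, against 54.7, 54.7 and 52.8 CPM in WT libraries. The groups were again far apart, and the log2 fold change was 0.50 (SE 0.046, place 314). The ratio of CTGF to CYR61 counts within a library, which is free of library scaling, was 1.11, 1.14 and 1.12 in KO and 1.02, 1.07 and 1.06 in WT. The ratio was a little higher in every KO library, with means of 1.12 ± 0.016 in KO and 1.05 ± 0.025 in WT (SD, n = 3 each).

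NPPB and ANKRD1 differed most. NPPB (chr1:11857464-11858931, minus strand) encodes the precursor of B-type natriuretic peptide, released by stretched heart muscle and induced by mechanical load. It was 30.4, 30.4 and 32.9 CPM in KO libraries, against 9.48, 9.19 and 10.7 CPM in WT libraries. The lowest KO library was 2.83 times the highest WT library. The log2 fold change of 1.67 (SE 0.079) was number 7 from the top of all genes tested. ANKRD1 (chr10:90912096-90921276, minus strand), a stretch-responsive ankyrin repeat protein of heart and skeletal muscle that also acts in the nucleus, was 39.8, 37.99 and 41.4 CPM in KO libraries, against 22.5, 21.3 and 21.3 CPM in WT libraries. All KO libraries exceeded all WT libraries, and the log2 fold change was 0.87 (SE 0.063, place 40). NPPB counts were 0.762, 0.800 and 0.795 of ANKRD1 counts in KO libraries, and 0.421, 0.432 and 0.502 in WT libraries. The 2 load-responsive genes thus shifted unequally, with NPPB gaining on ANKRD1 in each KO library. Of 10 cardiomyocyte markers only MYL7, ACTC1 and NKX2-5 were tested at day 2, and their summed level was 249 to 264 CPM in KO libraries and 225 to 230.5 CPM in WT libraries. ACTC1, a cardiac actin, rose (log2 fold change 0.39), NKX2-5, a heart field regulator, fell (−0.36), and MYL7 was −0.04 without passing. The part of the cell mixture in the NPPB and ANKRD1 values was not tested.

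Among the feedback regulators, PTPN14 was higher in KO in every library and AMOTL2 lower, while LATS2 overlapped. PTPN14 (chr1:214348696-214552449, minus strand), a phosphatase that binds YAP, was by far the most counted member, at 460, 404 and 410 CPM in KO libraries, against 379, 360 and 352 CPM in WT libraries. The groups did not overlap, but the lowest KO library was only 1.07 times the highest WT library, and KO replicate 1, the deepest library, was the highest. Its log2 fold change was 0.23 (SE 0.042) with all libraries and 0.17 without KO replicate 1. AMOTL2 (chr3:134355874-134375479, minus strand), a junctional scaffold that binds YAP, was the only member lower in KO: 208, 201 and 202 CPM in KO libraries, against 209, 212 and 218 CPM in WT libraries. Its groups touched without overlapping, and the log2 fold change of −0.07 (SE 0.033) was not called. LATS2 (chr13:20973032-21061547, minus strand), the kinase that inactivates YAP, was 42.1, 39.4 and 38.8 CPM in KO libraries, against 37.2, 39.4 and 37.5 CPM in WT libraries. The genotypes overlapped, and the log2 fold change was 0.08 (SE 0.057).

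CRIM1 and AXL are cell-surface proteins. CRIM1 (chr2:36355926-36551135, plus strand), a transmembrane protein that binds BMPs, was 46.8, 45.0 and 45.7 CPM in KO libraries, against 47.5, 41.1 and 42.8 CPM in WT libraries. The highest value of all was in WT replicate 1, and the log2 fold change was 0.07 (SE 0.057). AXL (chr19:41219203-41261766, plus strand), a receptor tyrosine kinase, was 13.9, 13.2 and 13.1 CPM in KO libraries, against 10.1, 13.1 and 11.7 CPM in WT libraries. WT replicate 2 reached the KO level. The log2 fold change of 0.20 (SE 0.097) became 0.30 without WT replicate 2 and 0.11 without WT replicate 1. AXL was the scarcest member in CPM in KO, while in WT NPPB was scarcer (means of 9.80 CPM for NPPB and 11.6 CPM for AXL). Exons of CTGF, PTPN14, AMOTL2, CRIM1 and AXL overlap another gene annotated in GENCODE 29, and without a stated strand setting for the counting the reads of each pair cannot be told apart.

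Levels per length changed the order of the members between genotypes. Scaled to annotated exon length, NPPB, whose transcript is short, had the highest level in KO at 45.0 ± 2.1 CPM per kilobase (SD, n = 3) and place 5 in WT at 14.1 ± 1.2. In KO the order then ran CTGF (36.8 CPM per kilobase), AMOTL2 (34.0), CYR61 (31.2), PTPN14 (22.7), ANKRD1 (20.1), LATS2 (7.18), CRIM1 (6.43) and AXL (2.60), and no neighbours overlapped in their 3 libraries. In WT it ran AMOTL2 (35.6 CPM per kilobase), CTGF (24.2), CYR61 (22.0), PTPN14 (19.4), NPPB (14.1), ANKRD1 (11.0), LATS2 (6.82), CRIM1 (6.15) and AXL (2.25). There only LATS2 and CRIM1 overlapped. The exon length is that of all GENCODE 29 exons of a gene together (694 bases for NPPB, 18756 for PTPN14), and the annotation behind the counts is not given in the sources used here, so levels of genes with many alternative exons may be understated.

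At day 0, with 1 library per genotype and no test, the pattern among the members was another one. NPPB was listed at 0 FPKM in the KO library and at 0.0726 FPKM in the WT library, and ANKRD1 was at 0.214 FPKM in KO and 0.0638 FPKM in WT. These members with the largest day 2 differences were thus at or near 0 in undifferentiated cells of both genotypes. CTGF was 33.2 FPKM in KO and 38.9 FPKM in WT, and CYR61 was 47.9 FPKM in KO and 46.2 FPKM in WT, a log2 ratio of FPKM + 1 of −0.22 for CTGF and 0.05 for CYR61. The CCN genes, higher in KO at day 2, thus had small differences at day 0, in opposite directions. PTPN14 was 16.7 FPKM in KO and 9.67 FPKM in WT (log2 ratio 0.73), the only one of the 7 members at 1 FPKM or more that passed 1.5-fold on this scale. Among 13280 genes at that level, 4.81% were past 1.5-fold higher and 8.77% past 1.5-fold lower. CRIM1 was 9.97 FPKM in KO and 6.45 FPKM in WT (log2 ratio 0.56), and AMOTL2 was 11.4 FPKM in KO and 8.21 FPKM in WT (0.43). In the other direction, AXL was 11.7 FPKM in KO and 17.8 FPKM in WT (−0.56), and LATS2 was 6.92 FPKM in KO and 7.83 FPKM in WT (−0.16). CRIM1 and AXL lay just inside the 1.5-fold limit. The median log2 ratio was 0.05 over the 7 members and −0.03 over all genes at that level. Day 0 depth is unknown, so no interval can be set on these values.

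**Figure D3:**
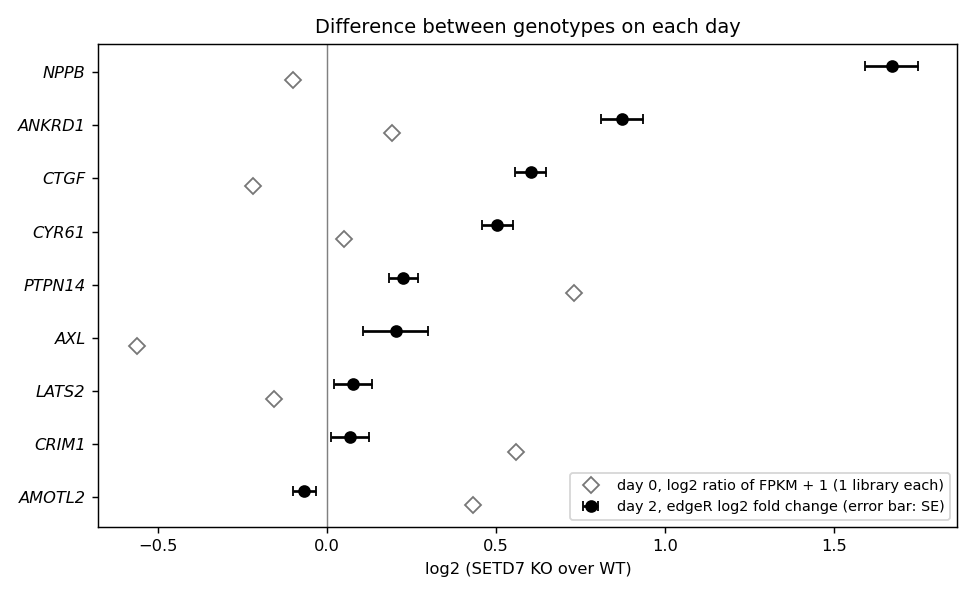
Difference between SETD7 KO and WT for each member, on the log2 scale. Filled circles are day 2 log2 fold changes with their SE (3 libraries per genotype), and open diamonds are day 0 log2 ratios of FPKM + 1 (1 library per genotype). NPPB has the largest day 2 value, 1.67, and PTPN14 the largest day 0 value, 0.73.

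Ranks within a library put the days side by side without mixing units. Among 11135 genes of both tables, NPPB was at percentile 0.135 in KO and 0.557 in WT at day 0, and on average at 92.2 in KO and 71.8 in WT at day 2. ANKRD1 was at percentile 1.15 in KO and 0.521 in WT at day 0, and at 80.4 in KO and 64.7 in WT at day 2. CTGF was at 83.7 in KO and 86.9 in WT at day 0, and at 90.1 in KO and 83.7 in WT at day 2. CYR61 was at 89.6 in both genotypes at day 0, and at 88.1 in KO and 82.1 in WT at day 2. NPPB and ANKRD1 thus stood near the bottom on one day and in the upper part on the other in either genotype, while the CCN genes ranked high on both days. AXL had the reverse order of days, at percentile 54.4 in KO and 68.0 in WT at day 0, and at 25.8 in KO and 23.4 in WT at day 2. AMOTL2 was at 53.6 in KO and 41.1 in WT at day 0, and at 89.1 in KO and 89.4 in WT at day 2. These ranks rest on the authors' lengths at day 0 and on GENCODE 29 lengths at day 2, so small shifts in rank are not comparable.

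**Figure D4:**
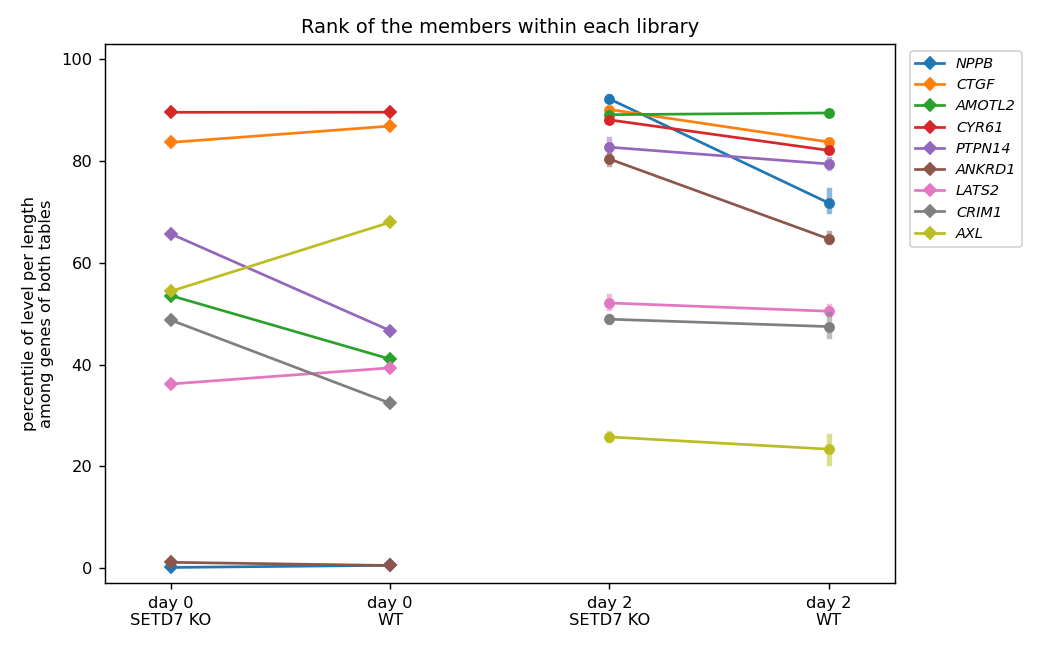
Percentile of each member's level per length within a library, among 11135 genes of both tables. Diamonds are single day 0 libraries, circles are means of 3 day 2 libraries with thick lines for their range, and lines join the genotypes of one day. NPPB lies near 0 in both genotypes at day 0 and at 92.2 in KO and 71.8 in WT at day 2.

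Of the other genes known as YAP and TEAD targets, 12 of 19 described here were tested at day 2, and 1 rose, none fell and 11 did not pass. GADD45A, a stress-induced growth regulator, rose to 142, 134 and 140 CPM in KO libraries, against 119, 118 and 117 CPM in WT libraries (0.24, edgeR adjusted p 1.19e-05). THBS1, the matrix protein thrombospondin, was 52.5 ± 3.3 CPM in KO and 48.8 ± 3.7 CPM in WT (SD, n = 3 each), and MYOF, a membrane repair protein, was 94.3 ± 4.2 CPM in KO and 101 ± 4.9 CPM in WT, neither past the threshold. BIRC5, an inhibitor of apoptosis, F3, ASAP1 and GLI2 did not pass. The median log2 fold change of the 12 genes was 0.07, beside −0.0026 for all genes tested. Of all genes tested, 12.3% were called higher and 11.0% lower. MYOF passed as lower without KO replicate 1 (edgeR adjusted p 0.0155) or WT replicate 1 (0.0315), and FJX1 as higher without KO replicate 2 (0.0203).

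The mRNAs of both coactivators and of TEAD3 were lower in KO, and that of TEAD1 was higher. Of 7 tested genes of this group, 3 fell, 1 rose and 3 did not pass, where 11.0% of all genes tested fell and 12.3% rose. The median log2 fold change of the group was −0.12. YAP1 fell to 310, 302 and 300 CPM in KO libraries, against 338, 330 and 323 CPM in WT libraries (log2 fold change −0.12, SE 0.032, edgeR adjusted p 0.0050). WWTR1, which encodes TAZ, was 53.2, 57.3 and 57.9 CPM in KO libraries, against 65.9, 61.7 and 61.9 CPM in WT libraries (−0.17, edgeR adjusted p 0.0111). TEAD3 was 66.8 ± 1.3 CPM in KO and 75.0 ± 5.8 CPM in WT (−0.17, edgeR adjusted p 0.0122). TEAD1, the most counted TEAD gene, rose to 625 ± 18.7 CPM in KO, against 589 ± 13.8 CPM in WT (0.09, edgeR adjusted p 0.0431). TEAD2 (−0.02), TEAD4 (−0.12) and VGLL4, a cofactor that competes with YAP for TEAD (−0.16), did not pass. The groups of YAP1, WWTR1, TEAD1 and TEAD3 did not overlap, and the KO level was 92.1% of WT for YAP1, 88.8% for WWTR1, 106.1% for TEAD1 and 89.1% for TEAD3. WWTR1 was not called without KO replicate 1 (edgeR adjusted p 0.0590) or WT replicate 1 (0.0652), and TEAD3 not without KO replicate 3 (0.0652) or WT replicate 3 (0.174). TEAD1 was not called without KO replicate 1 (0.0822), KO replicate 3 (0.0731), WT replicate 2 (0.138) or WT replicate 3 (0.220). At day 0 YAP1 was 47.1 FPKM in KO and 38.3 FPKM in WT, WWTR1 5.42 FPKM in KO and 5.83 FPKM in WT, and TEAD4 45.3 FPKM in KO and 26.0 FPKM in WT.

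Of 31 tested Hippo kinases, adaptors and upstream regulators, 5 rose, none fell and 26 did not pass. Over all genes tested 12.3% rose and 11.0% fell, and the median log2 fold change of the 31 was 0.01. WWC3 (log2 fold change 0.26, edgeR adjusted p 2e-04) and WWC2 (0.12, 0.0157), scaffolds that promote LATS phosphorylation, rose. So did AJUBA, a LIM protein that binds LATS (84.7 ± 4.3 CPM in KO and 74.6 ± 2.4 CPM in WT, 0.18, edgeR adjusted p 0.0029), DCHS1, a protocadherin (0.17, 0.0232), and the scarce kinase gene MAP4K1 (0.50, 0.0474). The core kinases and their adaptors did not pass: LATS1 was 62.1 ± 3.7 CPM in KO and 65.0 ± 2.3 CPM in WT, and the log2 fold changes were −0.14 for STK3, 0.10 for STK4, −0.04 for SAV1, −0.01 for MOB1A and 0.04 for NF2. The ratio of LATS2 to LATS1 counts was 0.637, 0.642 and 0.660 in KO libraries, against 0.551, 0.623 and 0.585 in WT libraries, higher in every KO library. For AMOTL2 to AMOTL1 it was 0.663, 0.730 and 0.714 in KO libraries, against 0.769, 0.742 and 0.768 in WT libraries, lower in every KO library. The calls of WWC2 were lost without WT replicate 2 (edgeR adjusted p 0.0588) or WT replicate 3 (0.0895). DCHS1 lost its call without KO replicate 1 (0.191), WT replicate 1 (0.136) or WT replicate 3 (0.0612), and MAP4K1 without KO replicate 2 (0.147), KO replicate 3 (0.126), WT replicate 1 (0.166) or WT replicate 3 (0.126), and with DESeq2 (0.0633).

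**Figure D5:**
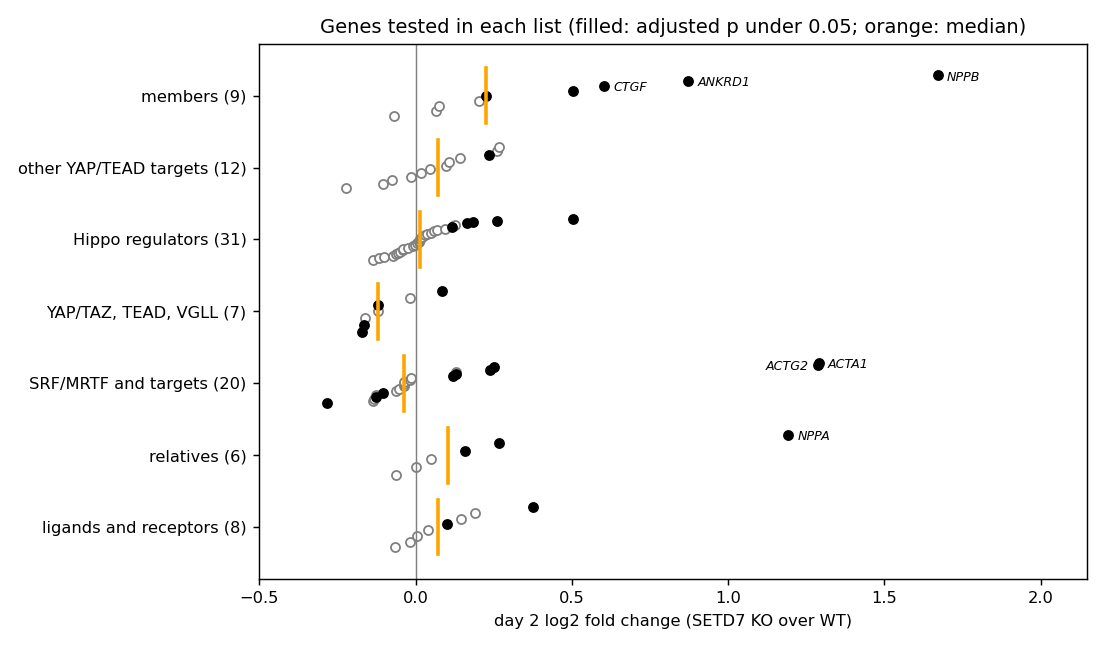
Day 2 log2 fold changes of the genes tested in each list, with the number tested in brackets. Filled points passed edgeR's adjusted p of 0.05, open points did not, and orange bars are list medians. NPPB lies at 1.67 and ACTA1 and ACTG2 at 1.29, and the coactivator group lies mostly below 0.

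SRF and its MRTF coactivators are the other main route from actin tension to transcription, and many of its targets are cytoskeletal genes. Of 20 tested genes of this group, 6 rose, 3 fell and 11 did not pass, where 12.3% of all genes tested rose and 11.0% fell. The median log2 fold change of the 20 was −0.04. ACTA1, skeletal muscle actin, rose to 11.6, 11.3 and 14.0 CPM in KO libraries, against 4.63, 4.80 and 5.61 CPM in WT libraries (log2 fold change 1.29, edgeR adjusted p 4.99e-10). ACTG2, a smooth muscle actin, was 2.87, 3.09 and 4.54 CPM in KO libraries, against 1.09, 1.90 and 1.23 CPM in WT libraries (1.29, edgeR adjusted p 8.03e-05). TAGLN (0.24), FHL1 (0.25), VCL (0.13) and CALD1 (0.12), which bind or tether actin, also rose. SRF itself fell to 163 ± 4.2 CPM in KO, against 178 ± 3.3 CPM in WT (−0.13, edgeR adjusted p 0.0074), and TGFB1I1, a focal adhesion protein, fell (−0.28). CNN2, a calponin, fell by 0.10 on the log2 scale and was not called without WT replicate 2 (edgeR adjusted p 0.0561) or WT replicate 3 (0.0542). The abundant ACTB (−0.04), ACTG1 (−0.04) and FLNA (−0.05) did not pass with all libraries. FLNA passed as lower without KO replicate 1 (edgeR adjusted p 0.00188). MYOCD passed as lower without KO replicate 3 (0.0297) or WT replicate 1 (0.0279), and FHL2 as lower without KO replicate 2 (0.0335).

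Relatives of the members were sparse at day 2: 6 of 14 listed genes were tested, 3 rose and 3 did not pass. Their median log2 fold change was 0.10, and 12.3% of all genes tested rose. NPPA, which encodes the atrial natriuretic peptide and lies near NPPB, was 2.02, 2.23 and 2.59 CPM in KO libraries, against 1.09, 1.09 and 0.796 CPM in WT libraries (log2 fold change 1.19, SE 0.249, edgeR adjusted p 0.000497). NPPB had 15.01, 13.6 and 12.7 times the counts of NPPA in KO libraries, and 8.73, 8.43 and 13.5 times in WT libraries, so that the ratios overlapped between genotypes. The AXL relatives MERTK (0.27, edgeR adjusted p 9e-04) and TYRO3 (0.16, 0.0230) rose, and so did PROS1, a ligand of TYRO3 and MERTK (27.9 ± 1.5 CPM in KO and 21.5 ± 1.9 CPM in WT, 0.38, edgeR adjusted p 2e-04). GAS6, the ligand of AXL, was 3.16 ± 0.70 CPM in KO and 2.87 ± 0.26 CPM in WT and did not pass. TYRO3 was not called without KO replicate 2 (edgeR adjusted p 0.0677), WT replicate 1 (0.0688) or WT replicate 3 (0.0622). Among 8 tested ligands and receptors, 2 rose and none fell, beside 12.3% and 11.0% of all genes tested. The median log2 fold change of the 8 was 0.07. Besides PROS1, ITGB1, the integrin chain that many matrix receptors share, rose (0.10, edgeR adjusted p 0.0130), and the call was lost without KO replicate 3 (0.0750) or WT replicate 3 (0.128). LRP1, a receptor that binds CTGF, had a log2 fold change of 0.19 that did not pass with all libraries but did without KO replicate 1 (0.0378), KO replicate 2 (4.08e-05) or WT replicate 2 (0.0101). Exons of YAP1, WWTR1, WWC2, MAP4K1, AJUBA, DCHS1, TAGLN, VCL, CNN2, TGFB1I1, NPPA, LATS1, AMOTL1, LRP1 and ITGB1 overlap another annotated gene, with the same limit as for CTGF. So do exons of TEAD2, VGLL4, THBS1, STK3, SAV1, LIMD1, FLNA, MYOCD, FHL2, ACTA2, TPM1, NPR2 and GAS6. Overlaps were looked up for SETD7, the members and the pathway lists only.

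The same lists were read at day 0, again without a test, against 4.81% of all genes past 1.5-fold higher and 8.77% past 1.5-fold lower. Among other YAP and TEAD targets at 1 FPKM or more, 1 of 15 was higher and 3 were lower, with NUAK2, an AMPK-related kinase, at 4.34 FPKM in KO and 9.36 FPKM in WT (log2 ratio −0.96), IGFBP3, an IGF-binding protein, at −0.84 and GLI2, a Hedgehog pathway factor, at −0.58. Among Hippo genes 1 of 32 was higher, AMOTL1 at 12.2 FPKM in KO and 6.94 FPKM in WT (0.73), and 1 was lower, AJUBA at 16.4 FPKM in KO and 26.2 FPKM in WT (−0.65). FRMD6, an upstream regulator, was at 0.52. Among 7 coactivator and TEAD genes only TEAD4 (0.78) passed the limit, and TEAD3 (−0.55) did not. Among 20 SRF and actin genes 1 was higher, ACTA1 at 19.3 FPKM in KO and 10.7 FPKM in WT (0.80), and 2 were lower, ACTG1 (−0.71) and TPM1 (−0.68). ACTA1 was thus higher in KO on both days. Among relatives 1 of 7 was higher, AMOTL1 again, and 1 was lower, MERTK (−0.63). TYRO3 at −0.34 and LATS1 at 0.11 did not pass the limit. Of 10 ligands and receptors, GAS6 was lower at 7.45 FPKM in KO and 15.9 FPKM in WT (−0.995), ITGB5, an integrin chain, was higher at 139.9 FPKM in KO and 83.9 FPKM in WT (0.73), and NPR2, a natriuretic peptide receptor, was at −0.40.

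Profiles most like those of CTGF and NPPB were looked for among 10178 genes that averaged 5 CPM or more, as the root-mean-square difference of centred log2 CPM over the 6 day 2 libraries. CTGF was closest to PTGIS, which encodes prostacyclin synthase (0.031), SLC2A13 (0.037) and NFASC (0.037), and CYR61 would take place 13 (0.055). ZNF229 (0.19) and CTSF (0.20) were among the genes closest to NPPB, while ANKRD1 would take place 13 (0.39). The genotype difference dominates these profiles, so the measure mostly finds genes with a fold change of like size.

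The cell types present could bear on all of these levels. Primitive streak and nascent mesoderm markers, with 11 of 12 tested, summed to between 3042 and 3106 CPM in KO libraries and between 2976 and 3023 CPM in WT libraries, and lateral plate markers, with 11 of 11 tested, to between 2853 and 2909 CPM in KO and between 2777 and 2859 CPM in WT. In each of these 2 lists 4 genes rose and 3 fell. MIXL1 and EOMES made up most of the first sum, and GATA6 and KDR were the largest of the second, so the sums can hide opposed changes. MIXL1 (log2 fold change 0.10), MESP2 (0.24), GSC (0.25) and LHX1 (0.38) rose, and T (−0.26), FGF8 (−0.25) and EVX1 (−0.81) fell. Among lateral plate markers HAND2 (0.56), LIX1 (0.56), PDGFRA (0.26) and KDR (0.12) rose, and FOXF1 (−0.37), HAND1 (−0.17) and ISL1 (−1.16) fell. For these and the other marker lists, the shares over all genes tested were 12.3% higher and 11.0% lower. Endoderm markers, with 6 of 8 tested, summed to between 9203 and 9367 CPM in KO and between 8377 and 8481 CPM in WT, and most of that sum was CER1, a secreted Nodal and BMP inhibitor, at 8432 ± 100.5 CPM in KO and 7482 ± 44.4 CPM in WT (SD, n = 3 each). CER1 rose, while SOX17 (log2 fold change −0.56) and PRDM1 (−0.74) fell. Pluripotency markers, with 8 of 10 tested, summed to between 2913 and 2937 CPM in KO and between 2777 and 2783 CPM in WT, with TDGF1 (0.13) and DNMT3B (0.17) higher and NANOG lower (−0.57). At day 0 pluripotency markers such as POU5F1 were high (113 FPKM in KO and 149 FPKM in WT) while MIXL1 was at 1.05 FPKM in KO and 0.598 FPKM in WT. Fibroblasts and stroma also express CTGF and CYR61. Their markers, with 7 of 10 tested, summed to between 558 and 587 CPM in KO and between 407 and 432 CPM in WT at day 2. Of the 7, 5 rose, LUM fell (−0.57) and THY1 did not pass. In undifferentiated cells at day 0 this list summed to 199 FPKM in KO and 205 FPKM in WT, but its make-up differed between the days. At day 0 THY1 was the largest, at 97.7 FPKM in KO and 73.3 FPKM in WT, while COL1A1 (log2 ratio −0.67) and COL1A2 (−0.58) were lower in KO. At day 2 COL1A2 was the largest, at 360 CPM in KO and 246 CPM in WT, and both COL1A1 and COL1A2 rose. Whether the sum is particular to stroma was not tested. Smooth muscle markers, with 5 of 8 tested, summed to between 372 and 387 CPM in KO and between 331 and 345 CPM in WT, with TAGLN (0.24) and ACTG2 (1.29) higher and SMTN lower (−0.22). CNN1 (−0.06) and ACTA2 (0.13) did not pass, and ACTA2 was at 0.611 ± 0.11 CPM in KO and 0.564 ± 0.19 CPM in WT. Of 8 endothelial markers only TEK, which rose, and ETV2, which fell, were tested, with sums of 24.0 to 28.6 CPM in KO and 17.4 to 17.8 CPM in WT. Amnion and trophoblast markers, with 4 of 10 tested, summed to between 370 and 380 CPM in KO and between 420 and 427 CPM in WT, mostly HAND1, which the lateral plate list also holds, and 3 of the 4 fell. The part of these markers in the member values was not tested.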

How the data were processed

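RNA-seq of 8 H1 libraries was used: 3 SETD7 KO and 3 WT at day 2, and 1 of each at day 0, grouped by the titles in the labels. The authors deposited whole-number counts per gene for day 2 and FPKM for day 0, per the file headers. Per the submitters' processing notes, HISAT2, StringTie and the build GRCh38 (hg38) were used, with no version stated. For the counter, its strand setting and the annotation, the sources used here give nothing. FPKM is scaled by transcript length and depth, so the days were never put in 1 fit.

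Day 2 counts were filtered with filterByExpr (11475 of 11644 genes kept), scaled by TMM and fitted with edgeR 4.0.16 in R 4.3.3 (robust quasi-likelihood fit, genotype as the only term, 2-sided, Benjamini-Hochberg over all genes tested, threshold 0.05). The SE is the log2 fold change divided by the root of F. Alternatives were DESeq2 size factors, upper-quartile scaling, no filter, DESeq2 1.42.0, a replicate block and leaving out each library. The steps were tested on simulated counts with changes larger than most of those called here, so that test does not cover small fold changes. Day 0 ratios used a pseudocount of 1 FPKM, a minimum of 1 FPKM in either library and a 1.5-fold limit. Exon lengths and positions came from GENCODE 29 (GRCh38) and promoter windows from RefSeq (GRCh38.p14). Python 3.11.15 with pandas 2.3.3 and numpy 2.4.6 was used.

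Members and lists were chosen with earlier results of these data known. Named are all 9 members and SETD7, up to 6 called genes per list, 9 genes central to the pathway, and the 3 genes closest in profile to CTGF and to NPPB, except that 1 gene is not reported here and was taken out of its list and its counts. Also named are up to 3 genes per list with the largest day 0 ratio at 5 FPKM or more. Other genes named for context were picked after their values were seen.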

Additional observations from a re-analysis of the deposited data

Results flagged for a closer look

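Signs of the day 0 log2 ratio of FPKM + 1 and the day 2 log2 fold change were compared for the members and pathway lists only. Of those called at day 2 and at 1 FPKM or more at day 0, 11 had opposite signs. Their day 2 libraries did not overlap between genotypes. No share over all called genes is given, so nothing is read from this count. The difference between the days was not tested, since day 0 has 1 library per genotype and another unit. CTGF was −0.22 at day 0 and 0.60 at day 2, the only member among these 11. AMOTL2, not called at day 2, also had opposite signs and no overlap, at 0.43 and −0.07, as did the uncalled NUAK2, FJX1, LIMD1, TEAD4 and VGLL4. Among Hippo genes AJUBA was −0.65 at day 0 and 0.18 at day 2, WWC2 was −0.15 and 0.12, and WWC3 was −0.13 and 0.26. YAP1 had the other order of signs, 0.29 at day 0 and −0.12 at day 2, and TEAD1 was −0.03 at day 0 and 0.09 at day 2. The day 0 ratios were not centred, and their median over all genes at 1 FPKM or more was also −0.03. The day 0 sign of TEAD1 is thus not firm. GADD45A was −0.52 at day 0 and 0.24 at day 2, and FHL1 was −0.08 and 0.25. In the AXL receptor family TYRO3 was −0.34 at day 0 and 0.16 at day 2, MERTK was −0.63 and 0.27, and their ligand gene PROS1 was −0.28 and 0.38.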

How the results depend on the processing

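Of 1154 values recomputed under an alternative, 1095 were counted as unchanged, with the same call or a shift within the allowed limit. A change of sign was counted only where the main or the alternative value passed its threshold, and none of those reversed. An uncalled gene with a very small difference could thus change sign and still count as unchanged. Of 99 day 2 values of the members, 98 were unchanged in this sense, with AXL as the exception. The count of members called was 5 to 6 when single libraries were left out. Calls over all genes tested numbered 2668 and lay between 2005 and 2669 over the alternatives, and the split of 1406 higher and 1262 lower became 1605 higher and 1010 lower with upper-quartile scaling. Over 6 pathway lists together 24 genes were called (16 to 25), beside 23.3% of all genes tested. The lists held 12, 31, 7, 20, 6 and 8 tested genes, with AMOTL1 and LATS1 among the relatives as well as the Hippo genes. Nothing is read from this total. Among other YAP and TEAD targets 1 gene was called, 2 with upper-quartile scaling and 1 to 2 when single libraries were left out. Leaving out single libraries gave 2 to 4 calls among Hippo genes (5 with all), 2 to 4 among coactivators and TEAD genes (4 with all) and 1 to 3 among ligands and receptors (2 with all). The replicate numbers did not pair the samples (correlations of same-numbered libraries −0.073, −0.072 and −0.037). With a replicate block, 2210 genes were called in all, 3 Hippo genes, 3 coactivator and TEAD genes and 1 ligand or receptor gene, and TEAD1 (edgeR adjusted p 0.0960), MAP4K1 (0.0557), DCHS1 (0.0557) and ITGB1 (0.0509) were not called. At day 0 the count of members past 1.5-fold was 1, but 3 with a pseudocount of 0.1 FPKM, 0 with a pseudocount of 5 FPKM and 2 after centring on the median. The longer TEAD form left 2 members with a match instead of 6. Where a call changed, the cause was not tested. MAP4K1, NPPA and ACTG2 were at under 5 CPM, where counts are few, and the part of depth in their values was not tested.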
